A study of Mus musculus with 9 samples.

Results

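In every library of mice with both liver X receptor genes knocked out, with or without a transgene named TG-AMH-LXRb, 41 genes were gained. They are described here by gene type, genome position, function and value in each library. They were chosen from a matrix of RPKM values, which are reads divided by exon length and by library size. A gene was taken if its lowest value in the 6 knockout libraries was at least 1 RPKM and at least 2 times its highest value in the 3 wild-type libraries. These 6 libraries are called "without receptors" for short. The name refers to the knocked-out genes only, because 3 of the 6 carry the transgene, whose name includes LXRb. Of 54838 genes, 14326 reached 1 RPKM in all 6 libraries and 43 met both conditions. Ifi202b and Acvrl1 were left out, which gave the 41 genes. The comparison of each group with wild type therefore chose the genes, and the differences from wild type are descriptions with no test. The libraries without receptors were also tested against each other. The rule set no difference between them, but it asked every transgenic and every LXR DKO value to be high, so a gene that the transgenic mice had near the wild-type level could not be chosen.

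The RNA came from corona radiata cells of adult mice, the innermost layer of granulosa-derived cumulus cells around the oocyte, after stimulation with the gonadotropins PMSG, which makes follicles grow, and hCG, which sets off ovulation. All samples also carry the term "J4", which the labels do not explain. The 3 groups were mice that lack both liver X receptors and carry a transgene named TG-AMH-LXRb (transgenic), mice that lack both receptors with no transgene (LXR DKO), and wild type (WT), with 3 libraries in each group. Neither the promoter and coding sequence of the transgene, nor the deleted part of either receptor gene, nor the strain of the mice is described in the labels. They do not say whether libraries came from separate animals or pools, so the spread that p-values measure may be technical.

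Liver X receptors belong to the nuclear receptors, and their ligands are oxysterols. As partners of retinoid X receptors they switch on genes of cholesterol efflux, lipoprotein metabolism and fatty acid synthesis, and without an activating ligand they can hold target genes down. In the ovary they are known for cholesterol balance in steroid-making cells and for oocyte maturation. Nr1h2, the gene of LXR beta on chromosome 7 (44549616 to 44553951), had 4.83, 5.28 and 6.7 RPKM in the transgenic libraries, 3.57, 2.85 and 3.03 RPKM in LXR DKO, against 45.7, 39.7 and 39.7 RPKM in WT. Nr1h3, the gene of LXR alpha on chromosome 2 (91184061 to 91202834), had 0.395, 0.819 and 0.539 RPKM in the transgenic libraries, 1.08, 0.713 and 0.933 RPKM in LXR DKO, against 3.5, 5.72 and 4.95 RPKM in WT. Neither gene overlapped between WT and the other groups. Nr1h2 was higher in every transgenic library than in every LXR DKO library. Whether these reads came from the transgene was not tested.

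Library sizes, worked back from the scale of the RPKM values, ranged from 31086718 to 47038045 reads. Summed RPKM of 15 oocyte markers was 516 in LXR DKO 1 and 900 in WT 1, and between 2.36 and 61.7 in the other 7 libraries. The sum of 7 red blood cell markers was 9880 in WT 3 and at most 971 elsewhere. Summed RPKM of 11 markers of oviduct epithelium was 1820 to 2430 in the transgenic libraries and 578 to 1090 in LXR DKO, against 443 or less in WT 1 and WT 2 and 2070 in WT 3. The 11 granulosa markers, with Foxl2, Fshr and Cyp19a1 among them, summed to 386 to 486 RPKM in the transgenic libraries, 359 to 565 RPKM in LXR DKO, against 685 to 754 RPKM in WT. Of the 9 granulosa markers tested, 4 were lower than WT in each group without receptors and none was higher. In bulk RNA, fewer cells of a type and less RNA per cell cannot be told apart. Leaving out a library can only add genes to the 41. Without WT 3 the rule took 256 genes, and without both WT 1 and LXR DKO 1 it took 65.

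Some of the sequences behind the gained values are shown first, because they bear on what was counted. Gm8210 on chromosome 1 (43189156 to 43189638, plus strand) and Gm13841 on chromosome 5 (115801677 to 115802159, minus strand) are processed pseudogenes, copies of a spliced messenger RNA that were put back into the genome. Both are 483 bases long, with 0 differing bases between them. They match the coding sequence of Rpl29 (chromosome 9, 106429454 to 106431568, plus strand), a protein of the large ribosomal subunit, at 99.4% of bases. From the A of the start codon as position 1, with the base of Rpl29 given first, the 3 differences are C72A, C300T and T423C. Positions 61 to 310 are printed from GENCODE M21 transcripts of the mm10 build, with the differences that fall there in capitals, and the stretch of Gm13841 is the one printed for Gm8210.
Rpl29: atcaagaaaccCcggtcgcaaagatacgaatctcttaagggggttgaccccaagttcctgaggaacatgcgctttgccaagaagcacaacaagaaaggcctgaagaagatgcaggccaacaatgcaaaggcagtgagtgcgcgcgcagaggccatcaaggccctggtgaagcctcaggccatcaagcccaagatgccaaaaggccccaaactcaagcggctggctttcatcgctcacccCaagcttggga
Gm8210: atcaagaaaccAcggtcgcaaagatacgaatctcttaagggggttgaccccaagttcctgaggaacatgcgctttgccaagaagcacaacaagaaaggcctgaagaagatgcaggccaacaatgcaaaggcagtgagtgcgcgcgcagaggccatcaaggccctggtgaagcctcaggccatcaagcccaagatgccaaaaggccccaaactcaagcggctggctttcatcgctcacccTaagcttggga

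Mir6546, a microRNA gene on chromosome 1 (171064591 to 171064652, minus strand), lies in an intron of the Fc receptor gene Fcgr3. Its mature microRNAs, from RefSeq on GRCm38.p6, are shown with the seed, bases 2 to 8, in capitals because the seed is what pairs with target messenger RNAs. No other mature mouse microRNA in that table has either seed.
mmu-miR-6546-5p: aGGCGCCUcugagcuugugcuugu
mmu-miR-6546-3p: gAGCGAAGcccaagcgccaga

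Hal and Amdhd1 are neighbours on chromosome 10 that belong to the same breakdown pathway. The 250 bases before the start of each, from RefSeq on GRCm38.p6, are printed 5′ to 3′ on the gene's strand. Capitals mark TATAA on either strand, where overlapping matches form 1 run. The Hal stretch is chr10:93488518-93488767 (plus strand) and its nearest match begins 26 bases before the start. The Amdhd1 stretch is chr10:93540034-93540283 (minus strand) and its match begins 172 bases before the start. A match to TATAA was present in 22.8% of 32851 promoters and in 6 of the 24 promoters (25%) listed for the gained genes.
Hal: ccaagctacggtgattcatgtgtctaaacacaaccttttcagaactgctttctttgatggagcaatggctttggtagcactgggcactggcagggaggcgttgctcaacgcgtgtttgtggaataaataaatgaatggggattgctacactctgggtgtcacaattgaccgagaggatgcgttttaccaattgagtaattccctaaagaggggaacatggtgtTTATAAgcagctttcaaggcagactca
Amdhd1: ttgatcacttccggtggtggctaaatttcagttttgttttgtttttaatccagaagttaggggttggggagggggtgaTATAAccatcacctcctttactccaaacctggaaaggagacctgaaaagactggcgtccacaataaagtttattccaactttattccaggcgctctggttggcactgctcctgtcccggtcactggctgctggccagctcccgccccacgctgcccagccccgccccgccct

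The 41 genes comprised 28 protein-coding genes, 8 processed pseudogenes, 2 unprocessed pseudogenes, 2 processed transcripts and 1 microRNA. Pseudogenes made up 24.4% of them, against 23.5% of the 14326 genes at or above 1 RPKM in all 6 libraries without receptors. Fold of group means over WT ran from 2.23 to 172 in transgenic (median 6.45) and from 2.53 to 122 in LXR DKO (median 5.86), leaving out Mir6546, which was at 0 in WT. The WT mean was under 1 RPKM for 18 genes, so many of the largest folds rest on a low WT level. Among the 6 libraries without receptors, the highest value was 1.46 times the lowest for the median gene and less than 2 times for 34 of the 41. The widest spread was that of Itln1, with a highest value 4.65 times the lowest.

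**Figure D1:**
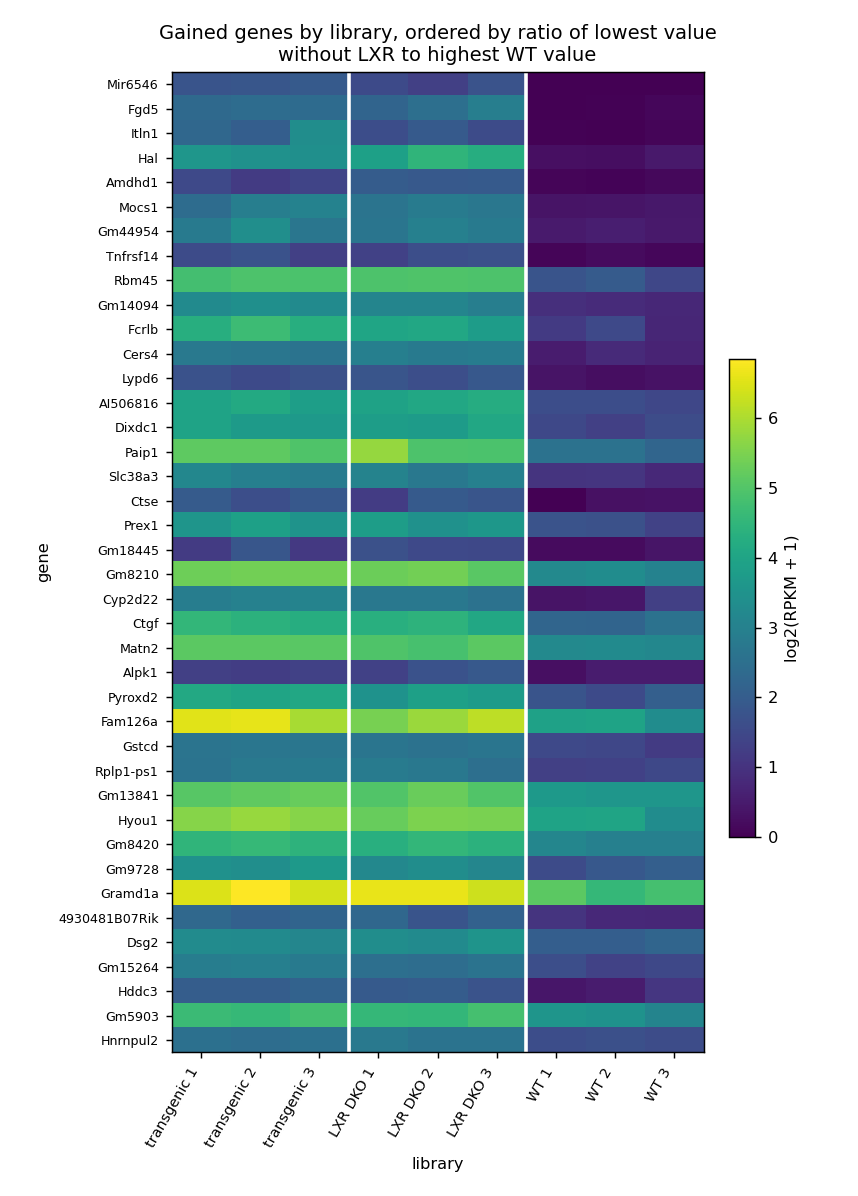
Level of 40 of the 41 gained genes (rows, ordered from the largest to the smallest ratio of the lowest value without receptors to the highest WT value) in 9 libraries (columns: transgenic, LXR DKO, WT), coloured by log2(RPKM + 1). Rows are brighter in the first 6 columns, by choice of the genes, and the brightest rows are Gramd1a and Fam126a.

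Metabolic enzymes and transporters accounted for 9 of the 28 protein-coding genes. The breakdown of the amino acid histidine was represented by 2 of them. Hal (ENSMUSG00000020017) encodes histidine ammonia-lyase, the enzyme that takes the amino group from histidine to give urocanate. It had 11.1, 10.1 and 9.66 RPKM in the transgenic libraries, 13.8, 21.3 and 18.1 RPKM in LXR DKO, against 0.205, 0.19 and 0.383 RPKM in WT. Amdhd1 (ENSMUSG00000015890) encodes imidazolonepropionase, which acts further along the same pathway. Its values were 1.85, 1.3 and 1.67 RPKM in the transgenic libraries, 3, 2.73 and 2.84 RPKM in LXR DKO, against 0.0751, 0.0558 and 0.105 RPKM in WT, where 5 to 12 reads were behind each value. Both genes were highest in LXR DKO, intermediate in transgenic and lowest in WT, where Hal had 39 to 100 reads, and no library of 1 group reached the range of another. Mean Hal was 39.8 times the WT mean in transgenic and 68.4 times in LXR DKO, and for Amdhd1 these ratios were 20.4 and 36.3.

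Uroc1 and Ftcd, of the same breakdown pathway, were near 0 in every library. Uroc1, urocanate hydratase, which stands between the enzymes made by Hal and Amdhd1, was at most 0.0735 RPKM in any library. Ftcd, the enzyme after Amdhd1, was at most 0.0277 RPKM. The other 7 genes tested of a list of 12 for histidine breakdown and histamine (Hdc, Carns1, Cndp2, Hnmt, Aoc1, Hars and Hars2) included none that passed the limma test at an adjusted p of 0.05 in any comparison. Over all 16422 genes tested, 11.9% passed in transgenic minus WT (5.15% higher and 6.72% lower), 10.6% in LXR DKO minus WT (3.47% higher and 7.12% lower) and 0.116% in transgenic minus LXR DKO. Both comparisons with WT share the WT libraries. With 7 genes, a count of none cannot be told from these shares. Hdc, Hnmt and Aoc1 were also far higher in WT 3 than in WT 1 and WT 2, which widened their spread.

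Slc38a3 (ENSMUSG00000010064), a glutamine and histidine transporter that oocytes are known to promote in mouse cumulus cells, had 8.04, 6.75 and 6.17 RPKM in the transgenic libraries, 7.37, 5.68 and 6.93 RPKM in LXR DKO, against 1.06, 1.08 and 0.721 RPKM in WT. The transgenic and LXR DKO ranges overlapped. LXR DKO 1 and WT 1, the libraries with most oocyte RNA, had values like those of the other libraries of their groups. An effect of oocytes on Slc38a3 was not tested. Cers4, a ceramide synthase, averaged 5.44 ± 0.335 RPKM in transgenic and 6.37 ± 0.383 RPKM in LXR DKO, against 0.609 ± 0.158 RPKM in WT (SD, n = 3 each). Mocs1, of the synthesis of the molybdenum cofactor, averaged 6.08 ± 1.51 RPKM in transgenic and 5.66 ± 0.522 RPKM in LXR DKO, against 0.318 ± 0.0426 RPKM in WT.

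Some of this group had 1 WT library above the others. Cyp2d22, a cytochrome P450 gene, had 6.5, 7.11 and 7.33 RPKM in the transgenic libraries, 5.73, 5.71 and 5.03 RPKM in LXR DKO, against 0.279, 0.339 and 1.44 RPKM in WT. Hddc3, a small hydrolase gene, had 3.07, 3.08 and 3.44 RPKM in the transgenic libraries, 2.85, 2.95 and 2.36 RPKM in LXR DKO, against 0.325, 0.436 and 1.13 RPKM in WT. For both the highest WT value was that of WT 3, the WT library with most oviduct and red blood cell RNA; the part of those cells in these values was not tested. Hddc3 shares 65% of its exon bases with Gm18310 on the opposite strand, which was at most 0.104 RPKM. It shares 11.3% with Man2a2, also on the opposite strand, which ranged from 9.77 to 16.2 RPKM, and the strand setting of the counting is not given in the sources used here. Pyroxd2, a predicted oxidoreductase, averaged 16 ± 0.83 RPKM in transgenic and 12.2 ± 1.9 RPKM in LXR DKO, against 2.53 ± 0.657 RPKM in WT. Gstcd, which has a domain of glutathione transferases, averaged 5.36 ± 0.133, 5.17 ± 0.205 and 1.62 ± 0.289 RPKM in transgenic, LXR DKO and WT.

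**Figure D2:**
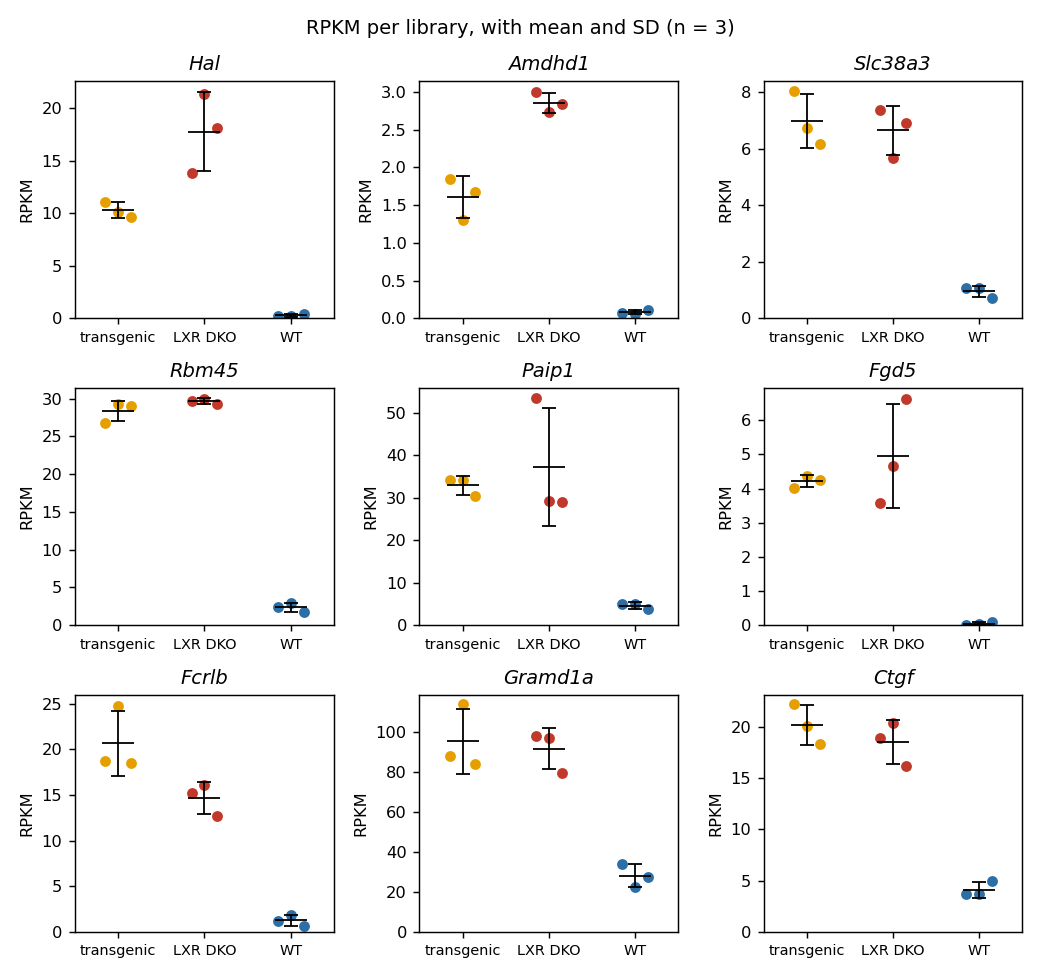
RPKM (y axis, linear from 0, own scale in each panel) of 9 gained genes in transgenic, LXR DKO and WT libraries; points are libraries, bars the mean and SD (n = 3). Hal and Amdhd1 are intermediate in transgenic, highest in LXR DKO and lowest in WT. Fcrlb is highest in transgenic, with no overlap with LXR DKO. The other genes drawn have overlapping or adjoining values in transgenic and LXR DKO.

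Genes of RNA binding and translation were 3. Rbm45 (ENSMUSG00000042369), an RNA-binding protein with several RNA recognition motifs, had 26.8, 29.3 and 29 RPKM in the transgenic libraries, 29.7, 30 and 29.3 RPKM in LXR DKO, against 2.44, 2.92 and 1.75 RPKM in WT. Its 6 values without receptors were among the closest of all 41 genes. Paip1 (ENSMUSG00000025451), which binds the poly(A)-binding protein and promotes translation, had 34.2, 34.2 and 30.4 RPKM in the transgenic libraries, 53.4, 29.3 and 29.1 RPKM in LXR DKO, against 5.01, 4.99 and 3.67 RPKM in WT. LXR DKO 1, which also had oocyte RNA, stood above the other 5 libraries without receptors. WT 1, the library with most oocyte RNA, had 5.01 RPKM, beside 4.99 RPKM in WT 2. The part of oocyte RNA in the Paip1 values was not tested. Hnrnpul2, a nuclear ribonucleoprotein gene, was the gene just inside the ratio of 2, with 4.44 RPKM as its lowest value without receptors and 2.2 RPKM as its highest in WT.

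Other genes of RNA binding and translation control were counted too. Of 21 such genes tested that are not among the 41, 1 was lower and none higher in transgenic minus WT (Eif3g, log2 fold change -0.39, adjusted p = 0.0351, limma). Likewise 1 was lower and none higher in LXR DKO minus WT (Elavl1, -0.32, adjusted p = 0.0495, limma). These are 1 of 21 each, beside shares of 11.9% and 10.6% over all genes. Counts this small cannot be told from those shares.

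Signalling proteins and receptors made up 9 genes. Fgd5 (ENSMUSG00000034037), an exchange factor for the small GTPase Cdc42 that is best known from endothelial cells, had 4.02, 4.38 and 4.24 RPKM in the transgenic libraries, 3.59, 4.65 and 6.62 RPKM in LXR DKO, against 0.00361, 0.0301 and 0.0878 RPKM in WT. These were 857 to 1171 reads in transgenic, 948 to 1437 in LXR DKO and 1, 7 and 26 in WT. The other 10 endothelial markers were also higher as a sum, at 5.46 to 6.54 RPKM in transgenic and 4.86 to 7.09 RPKM in LXR DKO, against 3.42 to 4.44 RPKM in WT, with no overlap between WT and the other groups. Of the 3 that were tested, Esam, an adhesion molecule of endothelial junctions, was higher in transgenic minus WT (log2 fold change 1.38, adjusted p = 0.00662, limma) and had 2.24, 3.18 and 2.48 RPKM in the transgenic libraries, 0.64, 0.99 and 0.829 RPKM in LXR DKO, against 0.23, 0.113 and 0.927 RPKM in WT. Esam was the largest single part of the sum in every transgenic library, and without it the sums of both groups overlapped WT. Pecam1 and Cdh5 passed in no comparison. Their log2 fold changes were 0.05 and -0.21 in transgenic minus WT, and 0.47 and 0.36 in LXR DKO minus WT. Tie1, Emcn and Flt1 were under 0.1 RPKM in all 9 libraries. The part of endothelial RNA in the values of Fgd5 was not tested. Prex1, an exchange factor for Rac, averaged 11.7 ± 1.93 RPKM in transgenic and 11.5 ± 1.51 RPKM in LXR DKO, against 2.06 ± 0.442 RPKM in WT.

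Fcrlb (ENSMUSG00000070524), an intracellular relative of the Fc receptors, had 18.7, 24.8 and 18.5 RPKM in the transgenic libraries, 15.2, 16.1 and 12.7 RPKM in LXR DKO, against 1.22, 1.85 and 0.679 RPKM in WT. Every transgenic value was above every LXR DKO value, and WT was far below both. Of the other 7 Fc receptor genes tested, among them its neighbours Fcgr2b and Fcgr3, none passed in any comparison. With 7 genes this cannot be told from the shares over all genes, 11.9% in transgenic minus WT and 10.6% in LXR DKO minus WT. Summed RPKM of 12 macrophage markers was 416 to 603 in transgenic and 687 to 1320 in LXR DKO, against 567 to 1310 in WT. The part of any immune cell in the values of Fcrlb was not tested.

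Regulators of Wnt signalling were Dixdc1, a cytoplasmic protein with a DIX domain, and Lypd6, a membrane-anchored protein. Dixdc1 averaged 12.8 ± 1.53 RPKM in transgenic and 13.9 ± 1.87 RPKM in LXR DKO, against 1.75 ± 0.272 RPKM in WT. Lypd6 averaged 2.14 ± 0.221, 2.43 ± 0.301 and 0.246 ± 0.0528 RPKM in the same groups. Immune signalling was represented by Tnfrsf14, a receptor of the TNF receptor family, at 1.46 to 2.28 RPKM in transgenic, 1.48 to 2.24 RPKM in LXR DKO, against 0.0632 to 0.15 RPKM in WT. Alpk1, a kinase that senses a bacterial sugar nucleotide, was at 1.37 to 1.5 RPKM in transgenic, 1.48 to 2.78 RPKM in LXR DKO, against 0.212 to 0.433 RPKM in WT.

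Fam126a (hyccin), part of the complex that makes phosphatidylinositol 4-phosphate at the plasma membrane, was among the most abundant. It had 92.6, 94.6 and 60.6 RPKM in the transgenic libraries, 42.8, 55.1 and 70.5 RPKM in LXR DKO, against 14, 14.6 and 9.08 RPKM in WT. The transgenic and LXR DKO ranges overlapped through transgenic 3 and LXR DKO 3.

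The remaining 7 protein-coding genes act in the matrix, in cell adhesion, as a lectin or protease, or in the endoplasmic reticulum. Gramd1a (ENSMUSG00000001248), also called Aster-A, carries cholesterol from the plasma membrane to the endoplasmic reticulum, and was the most abundant of the 41. It had 87.8, 114 and 83.7 RPKM in the transgenic libraries, 97.7, 97.1 and 79.6 RPKM in LXR DKO, against 33.9, 22.4 and 27.5 RPKM in WT. The transgenic and LXR DKO values overlapped. Hyou1, a chaperone of the endoplasmic reticulum, averaged 49.8 ± 3.86 RPKM in transgenic and 41.6 ± 3.97 RPKM in LXR DKO, against 13 ± 3.38 RPKM in WT.

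Ctgf (ENSMUSG00000019997), a secreted matricellular protein known as a target of YAP signalling in granulosa cells, had 22.2, 20.1 and 18.3 RPKM in the transgenic libraries, 18.9, 20.4 and 16.2 RPKM in LXR DKO, against 3.67, 3.65 and 4.98 RPKM in WT. Matn2, the matrix protein matrilin-2, averaged 33.6 ± 0.301 RPKM in transgenic and 30.5 ± 2.88 RPKM in LXR DKO, against 8.35 ± 0.379 RPKM in WT. Dsg2, a cadherin of desmosomes, averaged 8.43 ± 0.515, 9.5 ± 1 and 3.29 ± 0.318 RPKM in the same groups. All 3 had close values in the 6 libraries without receptors, and for Dsg2 the desmosomal partner gene Dsc2 fell just outside the rule, with a ratio of 1.961.

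Itln1 (ENSMUSG00000038209), a secreted lectin of mucosal surfaces, had 3.9, 3.1 and 9.22 RPKM in the transgenic libraries, 2.09, 2.85 and 1.98 RPKM in LXR DKO, against 0.0199, 0 and 0.0745 RPKM in WT, where 1, 0 and 4 reads were behind the values. All transgenic values were above all LXR DKO values, and transgenic 3 was far above the rest. The sum of oviduct epithelium markers was also higher in every transgenic library than in LXR DKO, and it was 2070 RPKM in WT 3, where Itln1 was at 0.0745 RPKM. The part of oviduct RNA in the values of Itln1 was not tested. Gm9765, 1.2 kb from Itln1, averaged 2.22 RPKM in transgenic and 1.04 RPKM in LXR DKO and was at 0 in WT (adjusted p = 0.00574 and 0.0332 for the comparisons with WT, limma). Ctse, the protease cathepsin E, had 2.93, 2.13 and 2.7 RPKM in the transgenic libraries, 1.31, 2.84 and 2.5 RPKM in LXR DKO, against 0.00717, 0.247 and 0.268 RPKM in WT.

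Of the 10 pseudogenes, all but Gm44954 had a protein-coding relative at least 90% identical over the aligned bases, whose own level could be set beside theirs. Rpl29 itself had 5.33, 4.14 and 5.31 RPKM in the transgenic libraries, 3.73, 5.31 and 4.76 RPKM in LXR DKO, against 19.4, 20.8 and 17.9 RPKM in WT. It fell in both comparisons, by a log2 fold change of -1.79 (adjusted p = 0.000145) in transgenic minus WT and of -1.87 (adjusted p = 0.000125) in LXR DKO minus WT, by limma. Gm8210 had 39.3, 41 and 40.8 RPKM in the transgenic libraries, 38.5, 41.1 and 33 RPKM in LXR DKO, against 8.32, 9.06 and 7.13 RPKM in WT. Gm13841 had 32.8, 34.9 and 37.4 RPKM in the transgenic libraries, 30.6, 37.7 and 30.7 RPKM in LXR DKO, against 11.9, 11 and 11.2 RPKM in WT. The parent gene was thus low where its copies were high, in all 9 libraries.

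Reads scaled to library size without division by length (RPM) can be added across genes, and gave a smaller difference for the family than for its members. Rpl29 averaged 5.55 ± 0.766 RPM in transgenic, 5.18 ± 0.904 in LXR DKO and 21.8 ± 1.61 in WT (SD, n = 3 each). The sum of Rpl29, Gm8210 and Gm13841 was 42 ± 1.58 in transgenic, 39.2 ± 4.23 in LXR DKO and 31.3 ± 2.05 in WT. The matrix holds 19 genes at least 95% identical to Gm8210 over at least 450 bases, and all of them together gave 81.5 ± 2.05 in transgenic, 74.6 ± 7.66 in LXR DKO and 66.7 ± 5.27 in WT. Only 3 of 483 bases tell Rpl29 from the pair, no base of the pair tells 1 copy from the other, and how reads with several matches in the genome were counted is not given. The value of each of these genes is therefore uncertain.

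**Figure D3:**
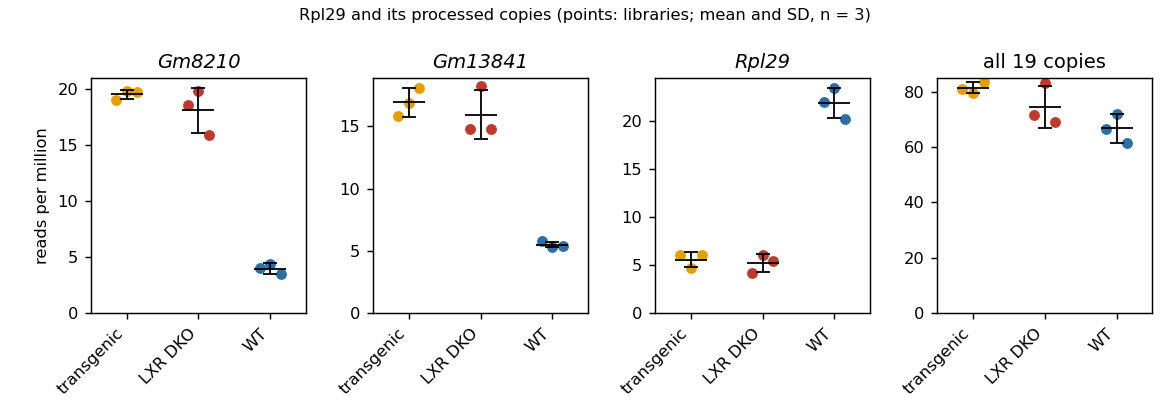
Reads scaled to library size in RPM (y axis, linear from 0, own scale in each panel) of Gm8210, Gm13841, Rpl29 and the sum of 19 near-identical copies in transgenic, LXR DKO and WT libraries; points are libraries, bars the mean and SD (n = 3). Rpl29 is high in WT alone, both copies are low in WT, and the sum of 19 copies differs least between groups.

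Other pseudogenes differed in how their relatives behaved. Rplp1-ps1 averaged 5.66 ± 0.48 RPKM in transgenic and 5.52 ± 0.742 RPKM in LXR DKO, against 1.57 ± 0.185 RPKM in WT, while the ribosomal protein gene Rplp1, 91.9% identical, was lower than WT with log2 fold changes of -0.95 in transgenic (adjusted p = 0.00143) and -1.09 in LXR DKO (adjusted p = 0.000718, limma). Gm8420 and Gm14094 are 96.6% and 94.6% identical to the ribosomal protein gene Rpl15, which was itself higher by 0.53 in transgenic (adjusted p = 0.0077) and by 0.51 in LXR DKO (adjusted p = 0.00815) on the log2 scale. Gm14094 had 8.7, 9.54 and 8.65 RPKM in the transgenic libraries, 7.66, 7.59 and 6.65 RPKM in LXR DKO, against 0.894, 0.797 and 0.697 RPKM in WT. Rpl15 took 102 ± 3.4 RPM in transgenic, 100 ± 1.44 in LXR DKO and 70.1 ± 7.46 in WT, so both copies were small beside it.

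Gm5903 lies inside an intron of Fgfr2 and is 99.3% identical over 2325 bases to Rfwd3, a ubiquitin ligase gene of DNA repair. It averaged 24.6 ± 1.94 RPKM in transgenic and 24 ± 3.13 RPKM in LXR DKO, against 9.49 ± 1.7 RPKM in WT. Rfwd3 moved in the same direction, with log2 fold changes of 1.19 in both comparisons (adjusted p = 0.00229 in transgenic minus WT and 0.00208 in LXR DKO minus WT, limma), and Fgfr2 passed in neither. Gm15264, an unprocessed pseudogene 61.2 kb from the gene Tuft1 and 98.6% identical to it over 502 bases, averaged 6.42 ± 0.346 RPKM in transgenic and 4.73 ± 0.315 RPKM in LXR DKO, against 1.82 ± 0.285 RPKM in WT. Tuft1 was also higher, by 1.16 in transgenic (adjusted p = 0.000292) and 0.88 in LXR DKO (adjusted p = 0.00125) on the log2 scale. Copies and parents this close can take each other's reads, so these pairs are not independent.

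Gm9728 resembles the alpha tubulin gene Tuba1a (92.2% of 630 aligned bases, out of 1055). It averaged 10.5 ± 1.3 RPKM in transgenic and 8.42 ± 0.797 RPKM in LXR DKO, against 2.64 ± 0.646 RPKM in WT, while Tuba1a passed in no comparison. Gm18445 resembles the interferon-inducible gene Ifi207 (91.3% of 608 aligned bases) and lies 4.18 kb from Ifi202b, the gene left out. It averaged 1.67 ± 0.754 RPKM in transgenic and 1.96 ± 0.229 RPKM in LXR DKO, against 0.196 ± 0.0919 RPKM in WT, and Ifi207 passed in no comparison. Gm44954, whose best match among protein-coding transcripts was weak (72.8% identity to Zfp273), averaged 6.96 ± 2.09 RPKM in transgenic and 6.07 ± 0.747 RPKM in LXR DKO, against 0.417 ± 0.0527 RPKM in WT.

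Noncoding transcripts among the 41 were AI506816 and 4930481B07Rik. AI506816 had 14.6, 17 and 13.4 RPKM in the transgenic libraries, 14.5, 16.1 and 18 RPKM in LXR DKO, against 2.06, 2.07 and 1.75 RPKM in WT. 4930481B07Rik averaged 3.64 ± 0.365 RPKM in transgenic and 3.23 ± 0.759 RPKM in LXR DKO, against 0.825 ± 0.197 RPKM in WT. Mir6546 rested on few reads, with 7, 5 and 6 in the transgenic libraries, 5, 3 and 5 in LXR DKO and 0 in each WT library. A count of 0 allows up to 3 reads, so no fold is given, and this limit covers counting error only. Its host gene Fcgr3 passed in no comparison. Apart from Mir6546, the gained genes with whole reads had at least 31 reads in every library without receptors.

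The genes lay on 16 chromosomes, with 7 on chromosome 1, 5 on chromosome 7 and none on chromosomes 11, 12, 14, 16 or Y. Chromosome 1 held 17.1% of them, against 5.97% of the genes at or above 1 RPKM in all 6 libraries without receptors. On chromosome 1, Fcrlb (170907273 to 170912941), Mir6546 and Itln1 (171518122 to 171535294) lay in 1 stretch. Gm18445 (173986926 to 174001972) lay further along, with no other of the 41 within 1 Mb. Fcrlb and Mir6546 were 152 kb apart, and Mir6546 and Itln1 453 kb apart. None of the 41 lay within 5 Mb of a receptor gene. The nearest were Gramd1a, 13.4 Mb from Nr1h2, and Rbm45, 14.8 Mb from Nr1h3.

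Several of the genes had another gained gene beside them. Hal (chromosome 10, 93488768 to 93519304, plus strand) and Amdhd1 (93523338 to 93540033, minus strand) face each other tail to tail, 4.03 kb apart. AI506816 and Fam126a on chromosome 5 are 203 kb apart, and Gm15264 and 4930481B07Rik on chromosome 3 are 258 kb apart.

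Genes lost by the mirror rule, at least 1 RPKM in every WT library and at least 2 times the highest of the other 6, numbered 66, and some were neighbours of gained ones. Paip1 (chromosome 13, 119428601 to 119458218) and the lost gene 4833420G17Rik are 4.55 kb apart, and the lost gene averaged 3.58 RPKM in transgenic and 3.84 RPKM in LXR DKO, against 12.1 RPKM in WT. Ntn4, which encodes the secreted protein netrin 4, lies 101 kb from Amdhd1 and averaged 10.4 RPKM in transgenic and 10.3 RPKM in LXR DKO, against 32.9 RPKM in WT. Olfml2b, 224 kb from Fcrlb, averaged 16.2 RPKM in transgenic and 13.8 RPKM in LXR DKO, against 42.4 RPKM in WT. The lost gene Mir3096 lies within AI506816 but shares no exon base with it, and the lost gene Gm43566 is 22.8 kb away. At these places a gained and a lost gene thus stood within 250 kb of each other.

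The share of genes that passed was also counted around the gained ones. Within 250 kb of any of the 41, leaving these out, 311 genes were tested. In transgenic minus WT 65 of them passed (27 higher and 38 lower), which is 20.9% against 11.9% over all genes. In LXR DKO minus WT 57 passed (22 higher and 35 lower), which is 18.3% against 10.6%. Within 100 kb the shares were 24.8% of 161 genes in transgenic minus WT and 21.1% in LXR DKO minus WT, and within 1 Mb they were 17% and 14.6% of 834. In transgenic minus LXR DKO none of these genes passed at any of the 3 distances, where only 0.116% of all genes passed. A count of none cannot be told from that share. Around the receptor genes, 12.7% of 118 genes within 5 Mb of Nr1h2 passed in transgenic minus WT and 6.78% in LXR DKO minus WT. Within 5 Mb of Nr1h3 these shares were 10.8% and 9.23% of 65 genes. These counts were not tested as lists.

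**Figure D4:**
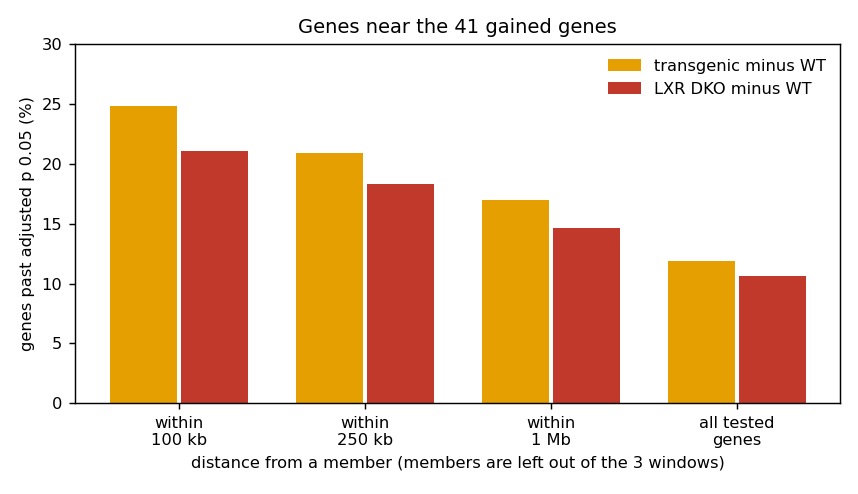
Percent of tested genes past an adjusted p of 0.05 (y axis, from 0) within 100 kb, 250 kb and 1 Mb of a gained gene, and among all tested genes, in transgenic minus WT and LXR DKO minus WT (limma). At 100 kb, 250 kb and 1 Mb the share is 24.8%, 20.9% and 17% in transgenic minus WT and 21.1%, 18.3% and 14.6% in LXR DKO minus WT, and both stay above the share of all genes.

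Transgenic minus LXR DKO was compared only within genes that were high in both groups by choice, so its count says nothing of genes that the transgene may have brought back to the WT level. None of the 41 passed the limma test over all 16422 genes, where 0.116% passed. At an unadjusted p under 0.05 there were 8 of the 41 (19.5%), 6 higher and 2 lower in transgenic, against 8.1% of all genes. A voom fit in limma on whole reads, which could be worked back for 39 of the 41, also called none. Log2 fold changes ran from -0.71 to 0.84 with a median of 0.06, against 0.013 over all genes. The groups did not overlap for 14 of the 41 genes (34.1%), against 18.3% of all genes tested. Of these, 10 lay above LXR DKO, as did 11.3% of all genes, and 4 below, as did 7.05%.

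The lowest were both genes of histidine breakdown. Amdhd1 had a log2 fold change of -0.57 ± 0.12 (SE, adjusted p = 0.178, limma) and Hal of -0.71 ± 0.15 (adjusted p = 0.187, limma), with all 3 transgenic values below all 3 LXR DKO values. Itln1 had the highest, 0.84 ± 0.3 (adjusted p = 0.501, limma). Gm15264 had 0.37 ± 0.1 (adjusted p = 0.336) and Gm14094 0.26 ± 0.09 (adjusted p = 0.511), with no overlap. Fcrlb, Pyroxd2 and Mir6546 were the others past an unadjusted p of 0.05, all higher in transgenic, with adjusted p between 0.578 and 0.605. By unadjusted 95% intervals, 38 of the 41 genes lay within 1 log2 unit of no difference, and the exceptions were Itln1, Fam126a and Hal. A miss of the threshold does not show that the groups are alike.

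**Figure D5:**
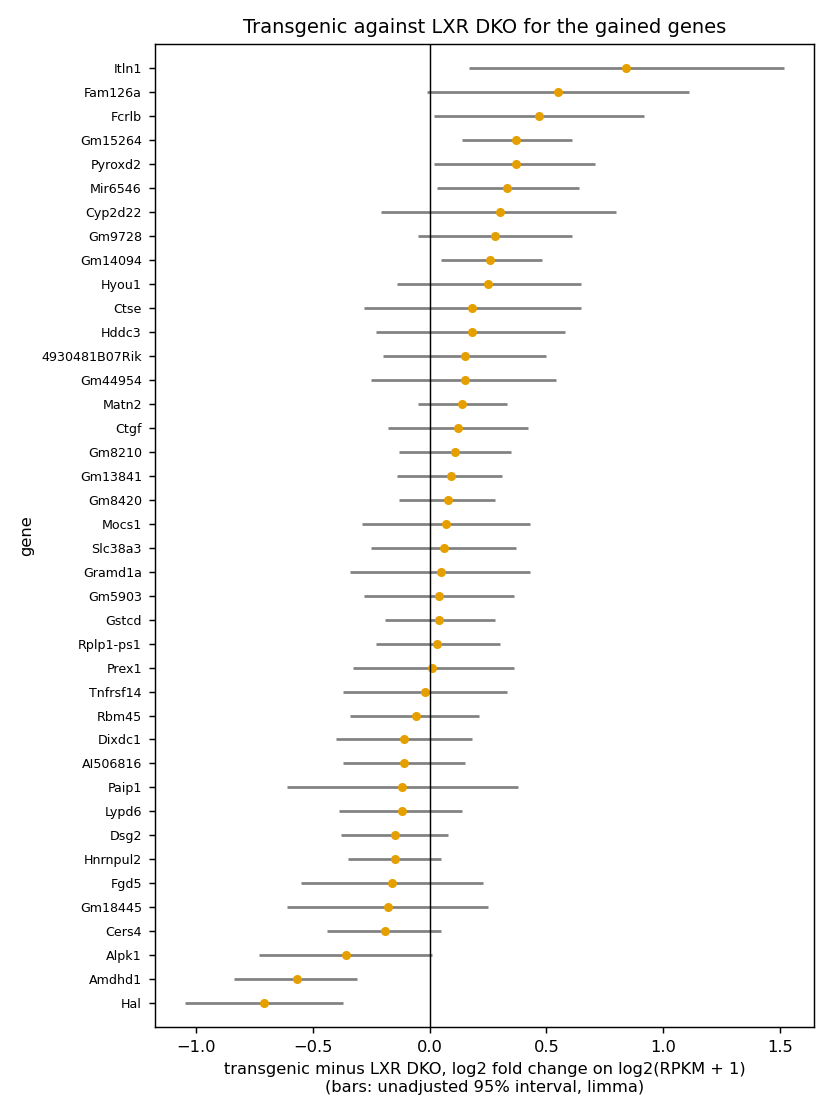
Transgenic minus LXR DKO log2 fold change on log2(RPKM + 1) (x axis) for 40 of the 41 gained genes (rows), with unadjusted 95% intervals from limma. Hal and Amdhd1 are the lowest and Itln1 the highest, and most intervals include 0.

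Known targets of liver X receptors were not among the gained genes. Of a list of 30, 24 were tested. In transgenic minus WT 9 fell and 1 rose, where 6.72% of all genes fell and 5.15% rose. In LXR DKO minus WT 5 fell and 1 rose, where 7.12% of all genes fell and 3.47% rose. The gene that rose in transgenic minus WT was Tgm2, a transglutaminase (log2 fold change 1.77, adjusted p = 0.0462, limma), and in LXR DKO minus WT it was Lpcat3, an enzyme of phospholipid remodelling (0.54, adjusted p = 0.0308, limma). Lpl, lipoprotein lipase, averaged 6.12 ± 0.438 RPKM in transgenic and 9.61 ± 1.21 RPKM in LXR DKO, against 17.5 ± 3.73 RPKM in WT. Mylip, which marks the LDL receptor for degradation, averaged 2.03 ± 0.47 RPKM in transgenic and 1.55 ± 0.269 RPKM in LXR DKO, against 4.36 ± 1.14 RPKM in WT. Both fell in both comparisons (adjusted p between 0.00169 and 0.0279, limma). Nr1h3 is in this list and is itself 1 of the deleted genes.

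The half-site bound by these receptors, AGGTCA, was searched on both strands of 24 promoters of 21 of the 41 genes, from 250 bases before to 50 bases after the start. It was in 0 of the 24, against 16.3% of 32851 promoters. Pairs of AGGTCA in the same direction with 4 bases between (the element known as DR4), and the looser pairs of GGTCA with the same spacing, which include the DR4 matches, were also in 0 of the 24, against 0.0152% and 0.0457% of all promoters. These letters are not in these windows, which says nothing of sites elsewhere. Median GC content was 60.8% in the 24 promoters and 52.7% over all, and the median number of CG pairs was 17 and 7.

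The rule's edges were close to the genes outside. Just inside the ratio of 2 were Hnrnpul2 (2.015), Gm5903 (2.047) and Hddc3 (2.089), and just outside Rpl34-ps2 (1.986), Dsc2 (1.961) and Slc11a1 (1.96). By the minimum of 1 RPKM, the lowest inside were Gm18445 (1.18 RPKM), Amdhd1 (1.3 RPKM) and Ctse (1.31 RPKM). Those just outside were Loxl4 (0.954 RPKM), Cyp2a4 (0.907 RPKM) and Gm25492 (0.899 RPKM). Of the 41, 9 share exon bases with another annotated gene, 8 of them on the opposite strand. The share was above 10% of exon bases only for Hddc3 and for Ctgf, where Gm15270 on the opposite strand covers 23.2% and was at most 0.21 RPKM.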

How the data were processed

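The authors deposited 1 matrix of RPKM values for 54838 mouse genes with 1 column per library, and 0 columns of values were unused. Per the submitters' processing notes, the tools were DESeq2 1.2.8, HTSeq 0.5.4p5, HISAT2 2.1.0 and cutadapt, on mm10, with no roles stated. No source used here gives the annotation, the strand setting or what was done with reads of several matches. Columns were matched to samples by name. With exon lengths of GENCODE M21, the values of 98.1% of 37863 genes were whole reads to within 0.02 reads, which gave reads per gene and library. Gene types and mm10 coordinates are from the same release.

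The members, lists and tests were chosen with earlier results of these data known. Limma 3.58.1 (R 4.3.3) was fitted on log2(RPKM + 1) over all 9 libraries, with genotype as the only factor and a mean-variance trend. Genes with at least 1 RPKM in at least 3 libraries were kept (16422), with Benjamini-Hochberg adjustment over all of them and a threshold of 0.05. The pseudocount of 1 makes log2 fold changes of low genes too small. The fit was tested on simulated data. Relatives of pseudogenes were found with BLAST 2.17.0 against GENCODE M21 transcripts. A single protein-coding member is counted but not reported here. Genes named were all other protein-coding members, the 12 other members with the largest ratio, members near each other, genes at the edges of the rule and both receptor genes; genes of the lists, neighbours and relatives of pseudogenes were added after their values were seen. The alternatives were another pseudocount, filter, normalization and variance model, libraries left out, only 2 groups in the fit, the replicate number as a block, other limits of the rule and other windows. A voom fit on whole reads, and a fit without WT 1 and LXR DKO 1, were added after seeing the data.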

Additional observations from a re-analysis of the deposited data

How the results depend on the processing

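In transgenic minus LXR DKO, 0 of the 41 genes passed under every alternative run (9 libraries left out in turn, pseudocount 0.1, no filter, a filter at 5 RPKM that kept 30 of them, quantile normalization, no trend, only the 2 groups, the replicate block, voom on whole reads, and no WT 1 and LXR DKO 1). The lowest adjusted p was 0.0669, for Hal without WT 3, and over all alternatives none of the 8 genes past an unadjusted p of 0.05 changed direction. With each library left out, Hal ranged from -0.87 to -0.58 and Amdhd1 from -0.64 to -0.48 on the log2 scale. Over all genes the count of 19 calls became 31 with quantile normalization and 98 with only the 2 groups, and 4 to 156 with a library left out (156 without WT 3, where 104 were higher and 52 lower).

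In transgenic minus WT the count of 1949 became 1096 with no filter and 1201 without WT 1 and LXR DKO 1, and 641 to 3442 with a library left out (3442 without WT 3, 58.6% of them higher, against 43.4% with all libraries). In LXR DKO minus WT the count of 1739 became 1032 with no filter, 1101 without WT 1 and LXR DKO 1 and 902 with only the 2 groups, and 606 to 2082 with a library left out. The cause was not tested. The rule took 95 genes at a ratio of 1.5 and 26 at 3, and 33 and 52 at minimum values of 2 and 0.5 RPKM. It took 41 to 256 with a library left out (256 without WT 3) and 65 without WT 1 and LXR DKO 1. After scaling by the median ratio it took 41, of which 40 were shared. The shares of neighbours that passed kept within 1.5 times of their value at the other windows.

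Samples with the same replicate number did not deviate together in every pair (correlations from -0.293 to 0.672). The highest was that of WT 1 with LXR DKO 1, the libraries with most oocyte RNA. These correlations therefore cannot decide whether the numbers pair the libraries. With the replicate number as a block, 8 genes passed in transgenic minus LXR DKO (3 higher and 5 lower).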

Other observations

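Genes of cumulus expansion and of luteinization, the change of follicle cells into corpus luteum cells, held none of the 41. Of 18 expansion genes tested, 5 fell and 1 rose in transgenic minus WT, and 3 fell and 2 rose in LXR DKO minus WT (limma). Over all 16422 genes 6.72% fell and 5.15% rose in transgenic minus WT, and 7.12% fell and 3.47% rose in LXR DKO minus WT. Tnfaip6, which links hyaluronan in the expanded matrix, averaged 135 RPKM in transgenic and 103 RPKM in LXR DKO, against 388 RPKM in WT (adjusted p = 0.00134 and 0.000396). Adamts1, a protease of ovulation, averaged 30.8 RPKM in transgenic and 39.6 RPKM in LXR DKO, against 13.2 RPKM in WT (adjusted p = 0.00504 and 0.00152). Of 17 luteinization genes tested, 6 fell and 1 rose in transgenic minus WT, and 3 fell and 2 rose in LXR DKO minus WT, beside the same shares over all genes. Ptgfr, the prostaglandin F receptor, averaged 6.06 RPKM in transgenic and 9.58 RPKM in LXR DKO, against 2.69 RPKM in WT (adjusted p = 0.00908 and 0.00098, limma). Star, which brings cholesterol into mitochondria for steroid synthesis, averaged 69.7 RPKM in transgenic and 67 RPKM in LXR DKO, against 118 RPKM in WT (adjusted p = 0.0411 and 0.0333, limma).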
